A study of Mus musculus with 6 samples.

Results

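The genes of 10 Krueppel-like factors, Klf2, Klf3, Klf4, Klf6, Klf7, Klf9, Klf10, Klf11, Klf13 and Klf16, were followed in myeloid cells sorted from mouse gliomas. They were taken by symbol from a table of 23107 genes that holds 17 KLF symbols, and all 10 had a row and passed the filter on low counts. The cells came from gliomas with mutant IDH1 (mIDH1, 3 libraries) and from gliomas with wild-type IDH1 (wtIDH1, 3 libraries), both in C57BL/6 mice. IDH1 is the cytosolic isocitrate dehydrogenase, whose mutant form in glioma makes 2-hydroxyglutarate. In both groups leukocytes were enriched on Percoll and cells carrying CD11b and Gr-1 were sorted, and the groups are named for the IDH1 of the tumour. The labels give no other allele of the tumours, no age, and no word on whether replicates came from separate mice, so any p-value here rests on the spread among these 6 libraries, which may be technical.

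Krueppel-like factors are transcription factors whose zinc fingers bind GC-rich and CACCC sequences, the same kind of site that the related SP factors bind. They fall into 3 groups by the proteins their other end recruits. KLF2, KLF4, KLF6 and KLF7 mostly activate genes, KLF3 recruits the corepressor CtBP, and KLF9, KLF10, KLF11, KLF13 and KLF16 recruit the corepressor SIN3. In mouse myeloid cells KLF4 is needed for monocyte differentiation and KLF2 restrains inflammatory activation. Several of these genes, among them Klf2, Klf4, Klf6 and Klf10, respond within minutes to stimulation and can also be induced while tissue is dissociated.

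Library totals ran from 19728205 to 35093265 counts. Levels are given as CPM, counts scaled to library size with TMM factors. A gene at 0 counts may still lie under 3 counts, or 0.0855 to 0.152 CPM depending on the library (counting error only). Itgam, the gene of CD11b, was at 2072 ± 211 CPM in mIDH1 and 1894 ± 146 CPM in wtIDH1 libraries (SD, n = 3 each). Ly6c2, which encodes an antigen that Gr-1 antibodies bind, was at 46.9, 54.3 and 33.8 CPM in mIDH1 libraries, against 120.2, 214.5 and 121.4 CPM in wtIDH1 libraries. The neutrophil genes S100a8 and S100a9 were at 10.3 and 48.8 CPM in mIDH1 and at 4.31 and 31.2 CPM in wtIDH1, and the granule gene Ctsg had at most 0.0159 CPM in either group mean. CD11b transcript was thus abundant in both groups. Some other neutrophil markers were at higher levels than these 3, such as the decoy receptor gene Il1r2 at 469 CPM in mIDH1 and 259 CPM in wtIDH1. Il1r2 is also known to be induced by glucocorticoids.

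Of the 10 genes, 1 fell and 1 rose in mIDH1 and 8 did not pass the test (edgeR's quasi-likelihood test, Benjamini-Hochberg adjusted p under 0.05 over 12950 genes). Klf4 fell and Klf9 rose. Over all genes tested 8.17% passed, 2.78% as higher and 5.39% as lower in mIDH1, and groups did not overlap in 28.9%. Groups did not overlap in 2 of the 10 members either, Klf4 and Klf9, so neither count marks the family as a whole. With scaling by library totals only, lower genes were 54.96% of calls in place of 65.97%, and the same count of 1 member higher and 1 lower was found. The median log2 fold change (mIDH1 over wtIDH1) of the 10 was -0.37, beside 0.06 over all genes tested, and 7 were negative. Over all genes tested 53.4% were positive. An unadjusted p under 0.05 was found for 3 of the 10, beside 22.2% of all genes tested.

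**Figure D1:**
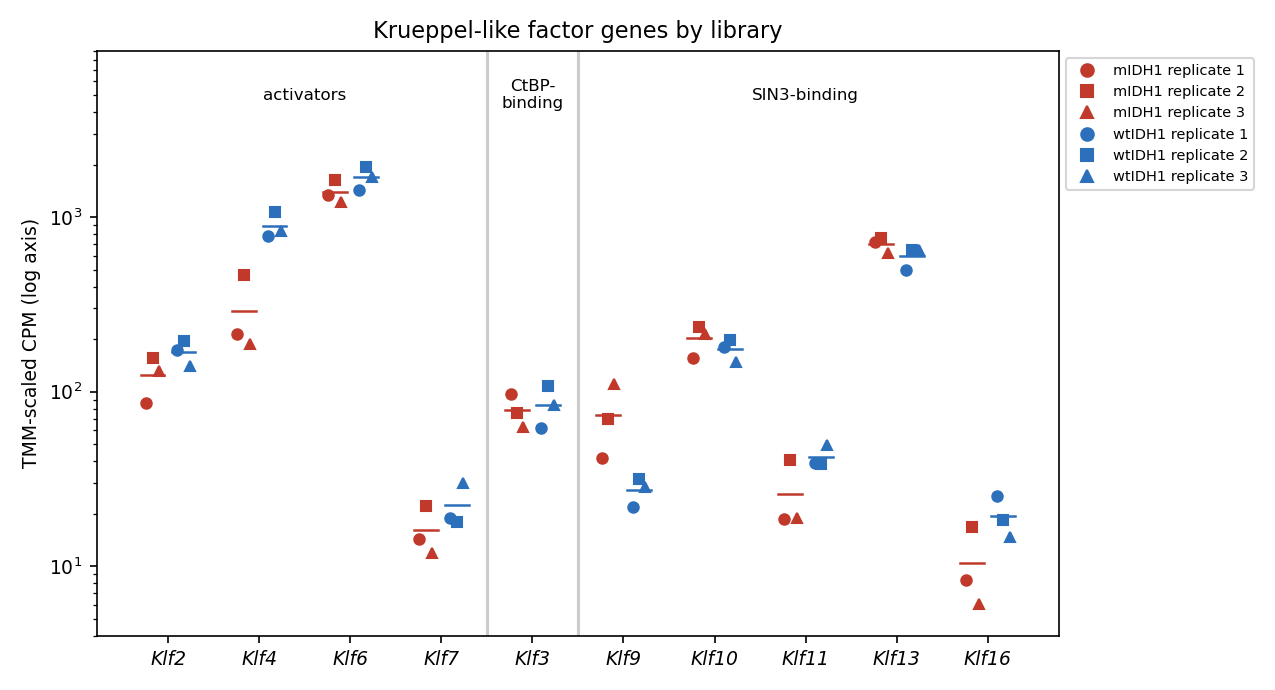
TMM-scaled CPM (log axis) of the 10 genes in each library, grouped by the kind of factor. Red points on the left of each pair are the 3 mIDH1 libraries, blue points on the right the 3 wtIDH1 libraries, shapes mark the replicate number and bars the group means. Klf4 lies lower and Klf9 higher in all 3 mIDH1 libraries, and the groups overlap in the other 8 genes.

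The activating group held Klf6, the member with the highest level, and Klf4, the gene that fell. Klf4 (chromosome 4, 55527143 to 55532466, minus strand) had 215, 465 and 187 CPM in mIDH1 replicates 1, 2 and 3, against 785, 1070.3 and 833 CPM in wtIDH1 replicates 1, 2 and 3. Every mIDH1 library lay below every wtIDH1 library, and mIDH1 replicate 2 lay well above the other two of its group. The means were 289 ± 153 CPM in mIDH1 and 896 ± 153 CPM in wtIDH1 (SD, n = 3 each), a log2 fold change of -1.63 ± 0.30 (SE, 95% interval -2.28 to -0.99, edgeR adjusted p = 0.0062). Klf4 passed in all 16 other settings tried, with log2 fold changes from -2.16 without mIDH1 replicate 2 to -1.40 without mIDH1 replicate 3 and an adjusted p of at most 0.0441 (without wtIDH1 replicate 2). In sorted bulk cells, fewer cells that carry a transcript and less of it per cell cannot be told apart.

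Klf2, the closest relative of Klf4 in this set (chromosome 8, 72319033 to 72321656), had 86.7, 155 and 131 CPM in mIDH1 libraries, against 172, 196 and 141 CPM in wtIDH1 libraries. The groups overlapped through mIDH1 replicate 2 and wtIDH1 replicate 3. Its log2 fold change was -0.45 ± 0.22 (SE, 95% interval -0.93 to 0.02, edgeR adjusted p = 0.251), and it passed in none of the 16 other settings. The ratio of Klf4 to Klf2 within a library, which no scaling of libraries can move, was 1.5, 1.81 and 0.867 in mIDH1 and 2.76, 3.31 and 3.57 in wtIDH1 libraries, in counts per kilobase of exon. The ratios of the groups did not overlap, and this difference was described and not tested.

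Klf6, a factor of wound and inflammatory responses, was the most abundant member per kilobase in all 6 libraries. It had 1335, 1633 and 1218 CPM in mIDH1 libraries, against 1436, 1944 and 1705 CPM in wtIDH1 libraries, with overlapping groups (log2 fold change -0.28 ± 0.18 SE, 95% interval -0.67 to 0.11, edgeR adjusted p = 0.397). Klf7, known for its part in neurons, was the least abundant per kilobase in all 6 libraries. It was at 16.1 ± 5.35 CPM in mIDH1 and 22.4 ± 6.78 CPM in wtIDH1 (log2 fold change -0.47, 95% interval -1.23 to 0.28, edgeR adjusted p = 0.475). Exons of the non-coding gene Gm26649, on the opposite strand, cover 39.3% of the exon length of Klf7, and the libraries do not keep strand, so the Klf7 value is uncertain. All 4 genes of the activating group had negative log2 fold changes, and 1 of them passed. The 95% intervals of the 3 that did not pass include 0.

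The 250 bases before the RefSeq start of Klf4, which fell, and of Klf2, which did not pass, are shown because the genes are close relatives with different results (GRCm38.p6, the mm10 build; Klf4 at chr4:55532476-55532725 on the minus strand and Klf2 at chr8:72318812-72319061 on the plus strand). Capitals mark matches, on either strand, to 7 motifs: the GC box GGGCGG, the CACCC box CACCC, the cyclic AMP response element TGACGTCA, the AP-1 site TGANTCA, the glucocorticoid response element, the MEF2 site and the CArG box of serum response factor.
Klf4: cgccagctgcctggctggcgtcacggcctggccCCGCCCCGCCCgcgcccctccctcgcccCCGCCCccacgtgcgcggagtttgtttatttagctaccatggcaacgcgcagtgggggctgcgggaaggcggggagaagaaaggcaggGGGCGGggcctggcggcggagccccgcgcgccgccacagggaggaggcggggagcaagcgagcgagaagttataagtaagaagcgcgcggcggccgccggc
Klf2: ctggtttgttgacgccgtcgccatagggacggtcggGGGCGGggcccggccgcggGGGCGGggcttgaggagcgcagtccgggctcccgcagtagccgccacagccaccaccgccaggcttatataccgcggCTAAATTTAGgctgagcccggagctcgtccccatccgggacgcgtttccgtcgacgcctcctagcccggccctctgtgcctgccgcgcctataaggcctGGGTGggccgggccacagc
In Klf4 the capitals are 4 GC boxes, whose first bases lie 217, 212, 189 and 101 bases before the start, the first 2 of them sharing 1 base. In Klf2 they are 2 GC boxes, 1 CACCC box 19 bases before the start, and 1 MEF2 site 118 bases before it. The start given above for Klf2 (72319033, from GENCODE) lies inside this window, and the CACCC box lies after that start. A GC box was found in 32.7% and a CACCC box in 52.0% of 32851 windows of this length, and a MEF2 site in 0.508%. Of the 8 members with a window in the RefSeq table, Klf2 was the one with a MEF2 site. These are matches of letters and say nothing of which factor was bound in these cells.

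The MEF2 site is of interest because the kinase ERK5 (gene Mapk7) and MEF2 factors are known to drive Klf2 and Klf4 in endothelial cells and macrophages. Of 13 tested genes of this input, 2 fell and 1 rose in mIDH1 (median log2 fold change -0.33). The list holds both genes that drive this input and genes that act against it, so its median gives no direction of the input. Hdac5, a deacetylase that holds MEF2 factors inactive, was at 71.5, 91.5 and 86.1 CPM in mIDH1 libraries, against 207, 227 and 212 CPM in wtIDH1 libraries. It fell without any overlap (log2 fold change -1.38 ± 0.17 SE, edgeR adjusted p = 0.00056) and passed in all 16 other settings. Mef2d, a MEF2 factor, fell (log2 fold change -0.79, adjusted p = 0.0119), and Wwp1, a ubiquitin ligase known to target KLF2, rose (1.15, adjusted p = 0.0157). Both lost the call without wtIDH1 replicate 2 or 3 (adjusted p up to 0.0643 for Mef2d and 0.0923 for Wwp1). The kinase genes Mapk7 and Map2k5 had log2 fold changes of -0.34 and 0.04 and did not pass (edgeR adjusted p = 0.562 and 0.954).

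Genes that KLF2 and KLF4 are known to act on gave 2 calls, both lower, among 7 tested (median log2 fold change -0.36). The list was not sorted by whether KLF2 and KLF4 activate or repress a gene. Cdkn1a, a cell-cycle inhibitor that KLF4 activates, was at 187, 173 and 127 CPM in mIDH1 libraries, against 351, 409.6 and 391 CPM in wtIDH1 libraries (log2 fold change -1.24 ± 0.18 SE, edgeR adjusted p = 0.0019). It passed in all 16 other settings. Ccnd1, a cyclin gene, fell (log2 fold change -0.85, adjusted p = 0.0284), but not without mIDH1 replicate 1 or 2 or wtIDH1 replicate 2 or 3 (adjusted p up to 0.146). S1pr1, a receptor gene that KLF2 activates in T cells, had a log2 fold change of -0.36 and did not pass (edgeR adjusted p = 0.725).

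Genes of the alternative macrophage activation that KLF4 supports together with STAT6 in mice went both ways. Of 12 tested, 2 rose and 1 fell (median log2 fold change -0.09), and 5 had positive and 7 negative log2 fold changes. The mannose receptor gene Mrc1 was at 828, 752 and 949.7 CPM in mIDH1 libraries, against 137, 93.4 and 206 CPM in wtIDH1 libraries. It rose (log2 fold change 2.53 ± 0.26 SE, edgeR adjusted p = 0.00017). Arg1, of the same list, was at 237, 324 and 1149 CPM in mIDH1 libraries, against 989, 1227 and 1676 CPM in wtIDH1 libraries. These groups overlapped, and Arg1 did not pass (log2 fold change -1.19, edgeR adjusted p = 0.136). The scavenger receptor gene Cd163 rose (2.60, adjusted p = 0.0453), with adjusted p up to 0.155 in other settings and no call by limma voom or when wtIDH1 replicate 2 or 3, or 1 mIDH1 library, was left out. The lectin gene Mgl2 fell (-2.99, adjusted p = 0.0112), but not without wtIDH1 replicate 3 (adjusted p = 0.0737). Stat6 itself had a log2 fold change of -0.16 (edgeR adjusted p = 0.612).

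**Figure D2:**
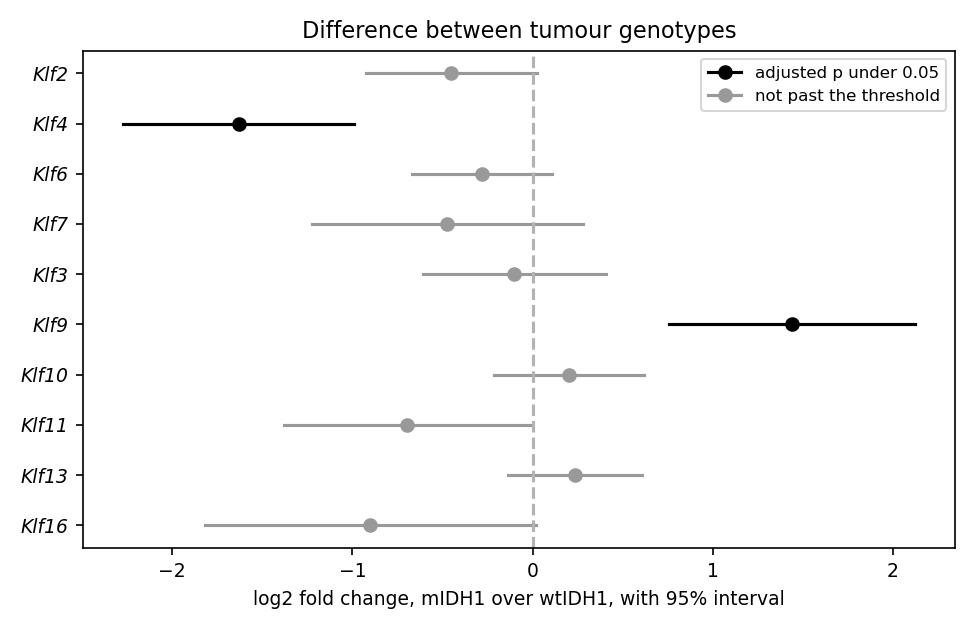
Log2 fold change of each gene, mIDH1 over wtIDH1, with its 95% interval from edgeR's test (3 libraries per group). Black marks adjusted p under 0.05 over all genes tested, and grey the rest. The intervals of Klf4 (-2.28 to -0.99) and Klf9 (0.76 to 2.12) lie on opposite sides of 0.

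Klf3, the CtBP-recruiting member (chromosome 5, 64803388 to 64832901), did not differ beyond its spread. It had 97.0, 75.9 and 62.6 CPM in mIDH1 libraries, against 61.8, 107 and 83.5 CPM in wtIDH1 libraries, and the groups overlapped fully. The log2 fold change was -0.10 ± 0.23 (SE, 95% interval -0.61 to 0.40, edgeR adjusted p = 0.853) and turned positive without mIDH1 replicate 3 (0.04) or wtIDH1 replicate 2 (0.10). In the list of CtBP and its partners, 3 of 13 tested genes fell, the repressor gene Hic1 (log2 fold change -2.89), Wiz (-1.02) and Rcor1 (-0.72). Hic1 did not pass without wtIDH1 replicate 2 (adjusted p = 0.0562). Wiz and Rcor1 were each lost in 5 of the 6 fits that left out a library (adjusted p up to 0.132 and 0.189), and Rcor1 was also lost with upper-quartile factors, library totals or equal depth. Ctbp1 and Ctbp2 had log2 fold changes of 0.25 and -0.66 and did not pass (edgeR adjusted p = 0.409 and 0.179).

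Among the 5 SIN3-recruiting members, Klf9 rose and the other 4 did not pass. Klf9 (chromosome 19, 23141226 to 23168134, plus strand) encodes a factor known to be induced by glucocorticoid and thyroid hormones. It had 41.5, 70.2 and 110.3 CPM in mIDH1 replicates 1, 2 and 3, against 21.8, 31.5 and 28.5 CPM in wtIDH1 replicates 1, 2 and 3. Every mIDH1 library lay above every wtIDH1 library, with the highest value in mIDH1 replicate 3. The means were 74.0 ± 34.6 CPM in mIDH1 and 27.2 ± 4.96 CPM in wtIDH1 (SD, n = 3 each), a log2 fold change of 1.44 ± 0.32 (SE, 95% interval 0.76 to 2.12, edgeR adjusted p = 0.0158). The call was lost without any 1 of the wtIDH1 libraries (adjusted p = 0.0642, 0.0683 and 0.0653 without replicate 1, 2 and 3), with log2 fold changes of 1.30, 1.55 and 1.47. Without mIDH1 replicate 3 the log2 fold change was 1.04 (adjusted p = 0.0386). The 10 settings that kept all libraries called it, at an adjusted p of at most 0.0423.

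The 250 bases before the RefSeq start of Klf9 are shown beside those of Klf4 because the genes moved in opposite directions (GRCm38.p6, chr19:23140976-23141225, plus strand, capitals as above).
Klf9: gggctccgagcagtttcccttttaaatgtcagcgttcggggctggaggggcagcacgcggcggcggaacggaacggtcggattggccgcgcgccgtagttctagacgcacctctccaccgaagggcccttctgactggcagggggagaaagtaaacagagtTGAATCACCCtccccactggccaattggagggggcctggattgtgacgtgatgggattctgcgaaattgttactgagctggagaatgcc
The capitals are 1 AP-1 site, 89 bases before the start, that shares 2 bases with 1 CACCC box 84 bases before it. An AP-1 site was found in 6.75% of all windows. There was no GC box, against 4 in Klf4, and the GC content was 59.6% in Klf9 and 74.0% in Klf4, beside a median of 52.4% over all windows. The full glucocorticoid response element was found in 0.00913% of all windows and in none of those of the 8 members, which says only that these letters are absent from them.

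Klf9 was read beside other genes that glucocorticoids are known to induce. Of 14 tested, 4 rose and 1 fell in mIDH1 (median log2 fold change 0.51), and between 3 and 6 rose when any 1 library was left out. Fkbp5, a chaperone partner of the receptor, was at 320.3, 355 and 458 CPM in mIDH1 libraries, against 74.9, 64.5 and 65.3 CPM in wtIDH1 libraries (log2 fold change 2.47 ± 0.19 SE, edgeR adjusted p = 3.9e-05). Tsc22d3, the gene of the protein GILZ, was at 246, 231 and 300.3 CPM in mIDH1 libraries, against 133, 138 and 100.3 CPM in wtIDH1 libraries (log2 fold change 1.06, adjusted p = 0.0049). Both passed in all 16 other settings, and both, like Klf9, were highest in mIDH1 replicate 3. The summed level of the list was highest in replicate 2 instead (3305, 4038 and 3831 CPM in mIDH1 replicates 1, 2 and 3). In wtIDH1, Fkbp5 was highest in replicate 1, where Klf9 was lowest (21.8 CPM). Tsc22d3 and Klf9 were both highest in wtIDH1 replicate 2. The metallothionein genes Mt1 (1.66, adjusted p = 0.0062) and Mt2 (3.16, adjusted p = 0.0173) rose, but Mt2 lost the call by limma voom and when mIDH1 replicate 3 or 1 wtIDH1 library was left out (adjusted p up to 0.179). Per1, a clock gene of the same list, fell (-0.69, adjusted p = 0.0210), but lost the call when mIDH1 replicate 2 or 1 wtIDH1 library was left out (adjusted p up to 0.0983). The receptor gene Nr3c1 had a log2 fold change of 0.35 and did not pass (edgeR adjusted p = 0.317). Klf15, a further KLF gene known to be induced by glucocorticoids, had 23, 19 and 20 counts in mIDH1 libraries, against 0, 1 and 0 counts in wtIDH1 libraries. These groups did not overlap, but the gene did not pass (edgeR adjusted p = 0.126), and none of 15 other settings called it. What part glucocorticoids have in the Klf9 result was not tested.

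**Figure D3:**
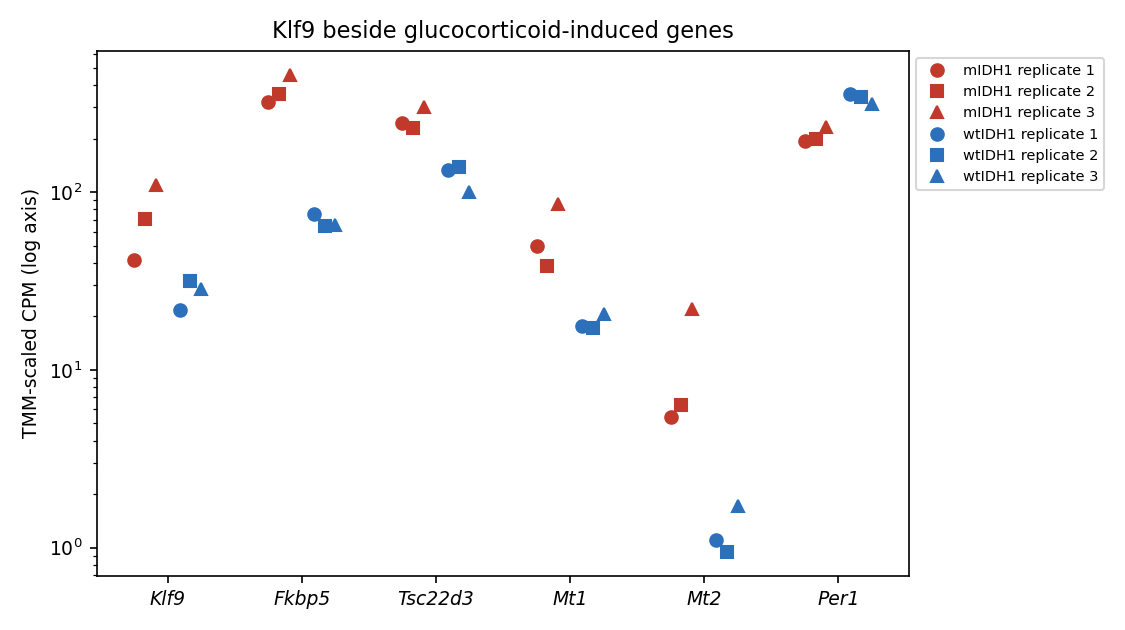
TMM-scaled CPM (log axis) of Klf9 and of the 5 genes with the smallest p among the glucocorticoid-induced list, per library, mIDH1 in red on the left and wtIDH1 in blue on the right. In each gene the 3 mIDH1 libraries lie on 1 side of the 3 wtIDH1 libraries, above them in all but Per1. The choice by p favours such separation, and the 9 genes of the list that did not pass are not shown.

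Klf10 and Klf11, known as early genes induced by TGF-beta, gave no call. Klf10 had 157, 236 and 213 CPM in mIDH1 libraries, against 180.1, 198 and 149 CPM in wtIDH1 libraries (log2 fold change 0.20 ± 0.19 SE, 95% interval -0.22 to 0.62, edgeR adjusted p = 0.604). Klf11 had 18.7, 40.5 and 18.9 CPM in mIDH1 libraries, against 39.0, 38.5 and 49.2 CPM in wtIDH1 libraries. Here mIDH1 replicates 1 and 3 lay at less than any wtIDH1 library and replicate 2 lay among them. The log2 fold change of Klf11 was -0.70 ± 0.32 (SE, 95% interval -1.38 to -0.01, edgeR adjusted p = 0.215), and without mIDH1 replicate 2 it was -1.17 (adjusted p = 0.0408). Of 14 tested genes that TGF-beta induces, 2 fell, Skil (log2 fold change -0.88) and Tgif1 (-0.71), which encode repressors of the pathway, and 1 rose, Id2 (0.59). Skil was lost without mIDH1 replicate 2 or wtIDH1 replicate 2 or 3 (adjusted p up to 0.0755). Tgif1 and Id2 were each lost in 5 of the 6 fits that left out a library, and nothing in the list passed without wtIDH1 replicate 2 or 3.

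Klf13, known for its part in the expression of the chemokine gene Ccl5 in T cells, ranked second of the 10 per kilobase in mIDH1 replicates 1 and 3. It had 723, 762 and 623 CPM in mIDH1 libraries, against 498, 646 and 646 CPM in wtIDH1 libraries, and the groups overlapped through mIDH1 replicate 3 (log2 fold change 0.24 ± 0.17 SE, 95% interval -0.13 to 0.61, edgeR adjusted p = 0.468). Klf16 had 8.36, 16.8 and 6.09 CPM in mIDH1 libraries, against 25.4, 18.3 and 14.8 CPM in wtIDH1 libraries. Again mIDH1 replicate 2 lay among the wtIDH1 libraries (log2 fold change -0.90 ± 0.42 SE, 95% interval -1.82 to 0.02, edgeR adjusted p = 0.235), and without it the value was -1.43 (adjusted p = 0.0876). Of 18 tested genes of the SIN3 complex 2 fell, Suds3 (log2 fold change -0.94) and Arid4a (-0.90), and 1 rose, the histone chaperone gene Rbbp4 (0.58). Sin3a and Sin3b had log2 fold changes of -0.18 and -0.16 (edgeR adjusted p = 0.583 and 0.639). The SIN3 list had no call without mIDH1 replicate 2 or wtIDH1 replicate 2 or 3, and 1 lower call without mIDH1 replicate 1 or wtIDH1 replicate 1.

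Levels of different genes were compared per kilobase of annotated exon, a length that counts rarely used exons too. In mIDH1 the order of means was Klf6 (318 CPM per kilobase), Klf4 (94.8), Klf13 (93.3), Klf2 (67.3), Klf10 (48.3), Klf9 (15.4), Klf3 (6.98), Klf11 (6.00), Klf16 (3.90) and Klf7 (1.98). Only the steps from Klf6 to Klf4 and from Klf10 to Klf9 were free of overlap between neighbouring genes. In wtIDH1 the order was Klf6 (386), Klf4 (294), Klf2 (92.0), Klf13 (79.3), Klf10 (42.0), Klf11 (9.73), Klf3 (7.49), Klf16 (7.29), Klf9 (5.66) and Klf7 (2.75). There the ranges of Klf6 and Klf4 overlapped, while Klf4 stood clear of Klf2, Klf13 of Klf10, Klf10 of Klf11 and Klf9 of Klf7. Klf9 thus ranked sixth or seventh in mIDH1 libraries and eighth or ninth in wtIDH1 libraries.

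The make-up of the summed level differed accordingly. Klf4 made up 12.1, 18.9 and 10.6% of the summed CPM per kilobase in mIDH1 libraries, against 31.5, 32.9 and 30.6% in wtIDH1 libraries. Klf6 made up 48.8 ± 3.19% in mIDH1 and 41.6 ± 1.75% in wtIDH1, and Klf13 14.4 ± 1.98% and 8.58 ± 0.889% (SD, n = 3 each). Shares of a sum are tied to each other, so a lower share of Klf4 raises those of other genes. The sum itself was 581, 806 and 580.0 CPM per kilobase in mIDH1 libraries, against 818, 1067 and 893 in wtIDH1 libraries.

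**Figure D4:**
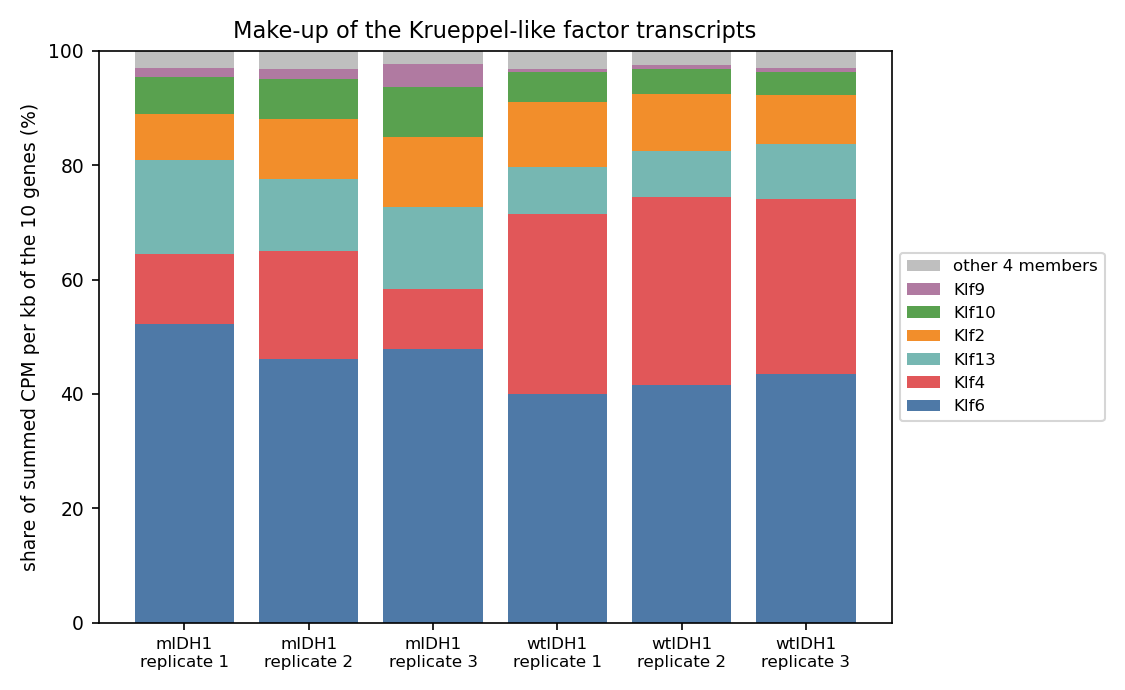
Share of each gene in the summed CPM per kilobase of the 10 genes, 1 bar per library, the 3 mIDH1 libraries on the left and the 3 wtIDH1 libraries on the right. Klf4 takes 10.6 to 18.9% in mIDH1 and 30.6 to 32.9% in wtIDH1 libraries, and Klf6 the most in every library.

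Within the groups, many members were highest in the same library. In mIDH1, 8 of 10 were highest in replicate 2, all but Klf3 and Klf9, where 32.8% of all genes tested were. In wtIDH1, 7 of 10 were highest in replicate 2, all but Klf7, Klf11 and Klf16, where again 32.8% of all genes were. The immediate early genes, which respond to stimulation and to tissue dissociation, were highest in the same libraries. Their summed level was 11230, 14020 and 9770.0 CPM in mIDH1 replicates 1, 2 and 3, against 16480, 21390 and 16460 CPM in wtIDH1 replicates 1, 2 and 3. The heat shock genes summed to 3719, 4776 and 4210 CPM in mIDH1 libraries, against 4548, 6380 and 5719 CPM in wtIDH1 libraries. Klf9 stood apart in mIDH1, where its highest library was replicate 3.

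**Figure D5:**
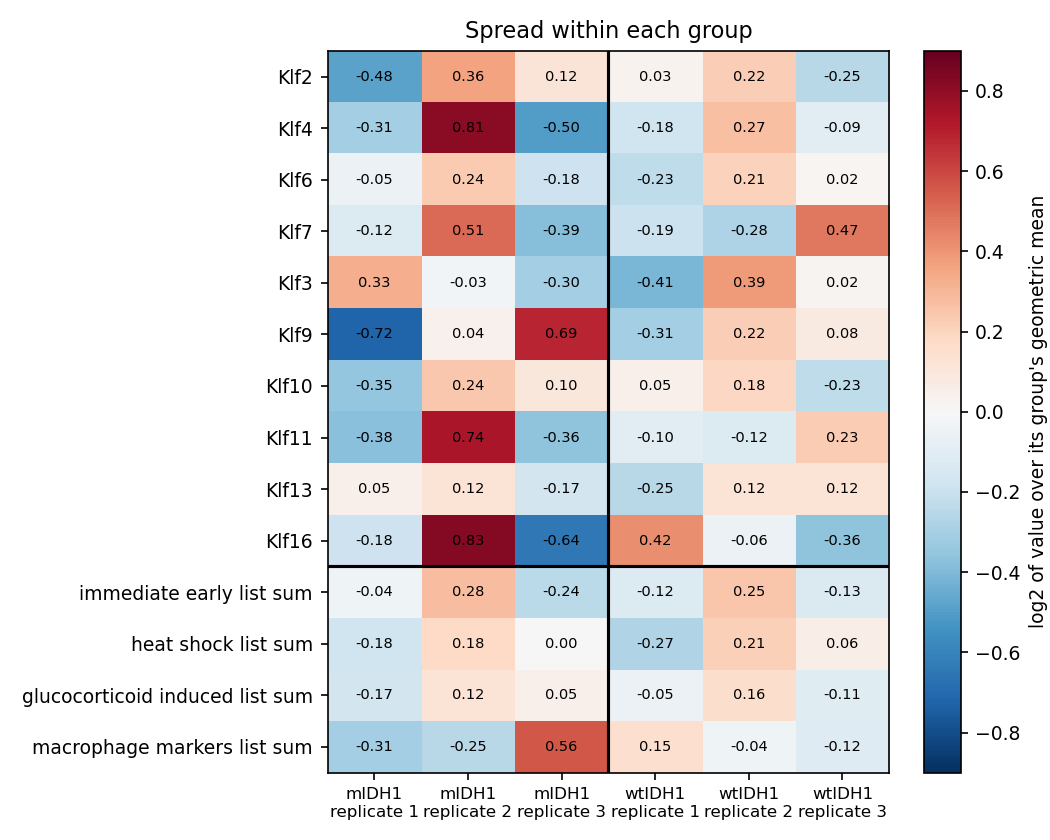
Log2 of each value over the geometric mean of its own group, for the 10 genes (above the line) and for the summed levels of 4 gene lists (under it), with the 3 mIDH1 libraries left of the 3 wtIDH1 libraries. Replicate 2 of mIDH1 is above its group's mean for 9 of the 10 genes, and replicate 3 of mIDH1 has the highest Klf9 (0.69) and macrophage marker sum (0.56).

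Between the groups, 10 of 25 immediate early genes fell and none rose (median log2 fold change -0.72), 5 without wtIDH1 replicate 2. Among them were Nr4a2 (log2 fold change -2.60), Atf3 (-1.76), Maff (-1.39) and Fosb (-1.16), which each passed in all 16 other settings. The early response KLF genes beside them were Klf4, which fell, and Klf2, Klf6 and Klf10, which did not pass. Of 10 heat shock genes 2 fell, Dnaja1 (-0.89) and Hspa1b (-2.16), none without wtIDH1 replicate 2 or 3, and the groups overlapped for Hspa1b, which DESeq2 and limma voom did not call. What part early induction has in the Klf4 result was not tested.

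The other genes of the wider family gave no call. Of the 7 KLF genes outside the 10, Klf1, Klf14 and Klf17 had 0 counts in all 6 libraries. Klf5, Klf8 and Klf12 had group means of 1.04, 1.01 and 0.377 CPM in mIDH1 and 0.0154, 2.08 and 0.151 CPM in wtIDH1. Klf8 and Klf15 were tested, and neither passed edgeR's test, DESeq2 or limma voom, while 1 of them had an unadjusted p under 0.05. Of 9 SP genes 4 were tested and none passed by these tools, with 1 at an unadjusted p under 0.05. That gene, Sp2, was at 23.2, 18.2 and 18.5 CPM in mIDH1 libraries, against 29.2, 36.2 and 30.3 CPM in wtIDH1 libraries, without overlap (log2 fold change -0.67 ± 0.26 SE, edgeR adjusted p = 0.142). Sp1 and Sp3, the common competitors for GC boxes, were at 240.3 ± 27.3 and 122 ± 15.4 CPM in mIDH1 and at 209.7 ± 12.3 and 116 ± 2.80 CPM in wtIDH1.

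Markers of cell types that express these factors moved with the groups as well. Of 16 monocyte markers 3 fell and 1 rose, F13a1 (log2 fold change 1.78). Those that fell were Ly6c2 (-1.76), Plac8 (-1.94) and Nr4a1 (-1.47), the last also counted among the immediate early genes. Without wtIDH1 replicate 2 there was 1 lower call, without wtIDH1 replicate 3 there were 2, and without mIDH1 replicate 3 there were 4 higher calls. The monocyte markers summed to 5893 to 7658 CPM in mIDH1 and 7348 to 10810 CPM in wtIDH1 libraries. Of 14 macrophage markers 8 rose and none fell, while 2 rose without wtIDH1 replicate 2, 3 without wtIDH1 replicate 3, and 5 without wtIDH1 replicate 1 or mIDH1 replicate 2 or 3. Their sum was 9127, 9486 and 16630 CPM in mIDH1 libraries, highest in the library with the most Klf9 and the least Klf4, against 7598, 6657 and 6311 CPM in wtIDH1 libraries. Apoe alone gave 2173, 2690 and 6836 CPM of the mIDH1 sums and did not pass (edgeR adjusted p = 0.102). C1qa, C1qb and C1qc were also highest in mIDH1 replicate 3, while Gpnmb was lowest there within its group. Of 13 neutrophil markers 3 rose, the granule genes Lcn2 (log2 fold change 2.54) and Mmp8 (1.85) and the receptor gene Cxcr2 (1.15), the last of them not without mIDH1 replicate 2 or wtIDH1 replicate 2. The receptor gene Csf3r fell (-0.82), but lost the call when 1 wtIDH1 library was left out. The neutrophil markers had sums of 881 to 1133 CPM in mIDH1 and 607 to 725.5 CPM in wtIDH1. Of these sums Il1r2 alone gave 306, 606 and 496 CPM in mIDH1 libraries, against 327, 187 and 263 CPM in wtIDH1 libraries. Il1r2, also in the glucocorticoid-induced list, did not pass (edgeR adjusted p = 0.0586). Of 11 microglia markers 1 rose, P2ry13 (1.07), though not without wtIDH1 replicate 2 or 3, with sums of 942 to 1888 CPM in mIDH1 and 1100 to 1760 CPM in wtIDH1. None of 10 dendritic cell markers passed by edgeR, DESeq2 or limma voom, and none had an unadjusted p under 0.05 in edgeR.

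Markers of endothelial cells and T cells, both known for high Klf2, were at low to moderate levels. Of 6 tested endothelial markers none passed edgeR's test, 2 had an unadjusted p under 0.05, and DESeq2 and limma voom each called 1 lower. They summed to 78.7 to 140.0 CPM in mIDH1 and 168 to 209 CPM in wtIDH1 libraries. Pecam1 (68.9 CPM in mIDH1 and 85.5 CPM in wtIDH1) and Flt1 (25.1 CPM in mIDH1 and 62.0 CPM in wtIDH1) had the highest means among them. Cdh5 was at 1.46 CPM in mIDH1 and 2.89 CPM in wtIDH1, and Cldn5 at 0.0517 and 0.0308 CPM. Emcn and Sox17 had 0 counts throughout. Of 14 T and NK cell markers 1 rose, Cd4 (log2 fold change 0.65), and Cd4 lost the call when mIDH1 replicate 2 or 1 wtIDH1 library was left out (adjusted p up to 0.187). Without mIDH1 replicate 3 there were 3 higher calls. Their sum was 521 to 1011 CPM in mIDH1 and 438 to 684 CPM in wtIDH1. Of 4 tested B cell markers none passed edgeR's test or limma voom, 1 had an unadjusted p under 0.05 and DESeq2 called 1 lower. Of 6 tested glioma and neural markers 1 rose, Sox2 (4.01 CPM in mIDH1 and 0.0757 CPM in wtIDH1), but nothing in the list passed when mIDH1 replicate 2 or 3, or 1 wtIDH1 library, was left out. With all libraries kept, limma voom did not call Sox2, equal depth and the filter of 1 CPM in 3 libraries gave no call in the list, and DESeq2 gave 3. What part the cell make-up has in the Klf4 and Klf9 results was not tested.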

How the data were processed

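RNA-seq was compared between 3 mIDH1 and 3 wtIDH1 libraries of CD11b+ Gr-1+ cells. A deposited table gave the authors' estimated counts for each gene, without scaling. The submitters' processing notes name TopHat2 2.0.13 with Bowtie2 2.2.1, and HTSeq, Cufflinks, FastQC and Cuffdiff 2.1.1, and the build mm10. Settings and annotation: not given in the sources used here. Per the labels' protocols, polyadenylated RNA went into TruSeq libraries, a kit that does not mark strand. Values were rounded, since 1.31 to 1.61% of them in a library differed from a whole number by more than 1e-09.

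Genes were kept with filterByExpr (minimum count 10, total 15), which left 12950, scaled by TMM and tested with edgeR 4.0.16 (glmQLFit, glmQLFTest, two-sided, R 4.3.3), with group as the only term. The 16 alternatives were RLE, upper-quartile or no scaling factors, no filter, 1 CPM in 3 libraries, DESeq2 1.42.0, limma voom 3.58.1, robust dispersion, a replicate block, equal depth, and each library left out. P-values were adjusted by Benjamini-Hochberg over all genes tested. Replicates of a group differed beyond sampling noise, with a chi-square of at least 50.5 for each degree of freedom. Positions, exon lengths and overlaps came from GENCODE M21 (GRCm38), promoter windows from RefSeq.

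The members and gene lists were chosen with earlier results of these data known. Beside the members, the text names each further KLF or SP gene past the threshold, up to 4 genes per list with the smallest p, and others chosen for their role after their values were seen. The edgeR test was also run on counts simulated for mIDH1 against wtIDH1 (12622 genes). It recovered 19.6% of 97 genes changed by a log2 of 1 and 55.2% of 96 changed by 2, with 2 false calls. The share of genes changed was smaller than the 8.17% called in the data. Recovery after Benjamini-Hochberg adjustment depends on that share, so these rates need not hold for the data.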

Additional observations from a re-analysis of the deposited data

How the results depend on the processing

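Klf4 and Klf9 kept their direction in all 16 alternatives, and Klf4 its call in all 16. Klf9 kept its call in 13, and its log2 fold change lay between 1.04 and 1.73 (1.035 to 1.729) when 1 library was left out. Klf11 passed in 1 of 16 and lay between -1.165 and -0.511 when 1 library was left out. Klf3 lay between -0.286 and 0.102 and turned positive without mIDH1 replicate 3 (0.0381) or wtIDH1 replicate 2 (0.102), and the cause was not tested. The other 6 members kept their direction and never passed. Of the 10 members, 1 to 3 were called when 1 library was left out, 0 to 1 higher and 1 to 2 lower. Of all genes, 334 to 1033 were called then, 1705 by DESeq2 and 585 with the replicate number as a block, beside 1058, and the cause was not tested. The number is only shared: deviations of same-numbered libraries from their group means correlated at -0.032, 0.031 and -0.051, and not every library correlated best with its own number. The replicate block changed no call of a member (Klf4 -1.74, Klf9 1.35). Of the other genes named as changed, Ccnd1, Per1, Tgif1, Id2, Rbbp4, Wiz, Rcor1, Cd163, Csf3r, Dnaja1, Cd4 and Sox2 did not pass with the block. With 3 libraries per group, the 95% intervals of Klf3, Klf7, Klf11 and Klf16, none of which passed, span more than 1 log2 unit.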
